A study of Homo sapiens with 6 samples.

Results

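The levels of 10 regulators of early cardiac mesoderm and endoderm were followed in a human embryonic stem cell line that carried altered forms of the histone H2A.X. The 10 genes were HAND1, ISL1, TMEM88, GATA4, GATA6, HAND2, SOX17, FOXA2, HHEX and CXCR4, out of 14884 genes with a named row on the array. All 10 had at least 1 named row, and they held 11 rows in all because ISL1 had a pair of rows. For ISL1 both rows are shown and the brighter one enters the counts. The genes were chosen by their measured group differences in these same arrays, so those differences are a description, and the adjusted p-values below are what a fit over all genes gave, not independent support.

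The cells were clones of H9, a widely used embryonic stem cell line, and each of 6 samples was hybridised to 1 Affymetrix human gene array, with 2 arrays in each of 3 groups. All groups received a lentiviral vector in which the EF1α promoter drove the insert and an IRES linked it to eGFP. CTRL carried pHIV-EF1α-IRES-eGFP with no histone, gamma_ON carried H2A.X with S139E, and gamma_OFF carried H2A.X with T136A and S139A. Serine 139 is the site whose phosphorylation makes γH2A.X, the mark of DNA double-strand breaks; glutamate stands in for the phosphorylated serine, and alanine cannot be phosphorylated. Cells positive for GFP and for the pluripotency antigen TRA 1-60 were sorted and plated singly on mouse embryonic fibroblasts, and colonies were expanded in conditioned medium with 8 ng/ml bFGF. No group carried unaltered H2A.X, so effects of a substitution and of extra histone cannot be told apart. The labels do not say whether both arrays of a group came from separate clones, so the p-values reflect spread between arrays that could be purely technical.

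In the early embryo, cells that leave the primitive streak form mesoderm or endoderm, under the control of Nodal, BMP and WNT signals. HAND1, HAND2, ISL1, GATA4 and GATA6 encode transcription factors of heart progenitors, and TMEM88 encodes a membrane protein that limits WNT signalling as these progenitors are specified. SOX17, FOXA2, HHEX and the chemokine receptor CXCR4 are used as markers of definitive endoderm. Several of these genes are also active outside the embryo proper: HAND1 in trophoblast and extraembryonic mesoderm, ISL1 in amnion, and GATA4, GATA6, SOX17, FOXA2 and HHEX in primitive or visceral endoderm.

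Expected cell identity was checked first. The 9 measured pluripotency genes, among them POU5F1, NANOG and SOX2, had a mean log2 level between 10.21 and 10.54 on the 6 arrays. The mean hides the single rows: SOX2 read 11.39 to 11.73, POU5F1 7.10 to 8.05 and NANOG 6.26 to 7.29. POU5F1 was higher in gamma_ON than in CTRL by 0.71 (limma adjusted p = 0.0441) and DNMT3B higher in gamma_OFF by 0.46 (adjusted p = 0.0489). Neither call survived dropping any 1 array of CTRL. The first was also lost without either gamma_ON array, and the second without either gamma_ON array or gamma_OFF replicate 2 (adjusted p = 0.134). Array values are log2 levels of 1 row each. Levels of different genes are set beside each other here only in brightness ranks and in means over a list. No detection call was used, so whether a dim row shows expression cannot be read from it. By row mean, HHEX and ISL1 were brighter than 51.9% and 53.0% of all 53617 rows, and TMEM88 was brighter than 95.5%. Most of those rows are unnamed. Of the 14884 named genes, 30.5%, 31.6% and 94.8% were dimmer than HHEX, ISL1 and TMEM88. The array of gamma_OFF replicate 2 had the narrowest values over genes, with an SD of 1.64. Next was gamma_OFF replicate 1 with 1.70, and the CTRL and gamma_ON arrays had 1.76 to 1.81. Both gamma_OFF arrays also had the highest medians over all rows, 6.21 and 6.25, against 6.11 to 6.17. A narrower spread in gamma_OFF cannot be told apart from the vector, and leaving out replicate 2 does not remove it. Calls that involve gamma_OFF are given below with what became of them when gamma_OFF replicate 2 was left out. Leaving out 1 array leaves 1 array in its group and fewer arrays to estimate the spread. A call can then be lost although the difference hardly moves. Where the array left out belongs to neither group compared, the difference does not move at all.

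Promoter sequence was at hand for 6 of the 10 genes, from RefSeq on the build GRCh38.p14. The windows of HAND1, ISL1 and GATA6 are shown because these genes differed between gamma_ON and gamma_OFF (ISL1 on its brighter row), together with TMEM88, which is named only. Each window holds the 250 bases before the annotated start, written 5′ to 3′ on the strand of the gene. Capitals mark matches to any of 3 motifs, searched on both strands: the GATA core as AGATAA or TGATAA, the E-box of bHLH factors as CANNTG, and the TCF/LEF core of WNT responses as CTTTGA. None of the marked matches overlapped another.
HAND1, chr5:154478228-154478477, minus strand: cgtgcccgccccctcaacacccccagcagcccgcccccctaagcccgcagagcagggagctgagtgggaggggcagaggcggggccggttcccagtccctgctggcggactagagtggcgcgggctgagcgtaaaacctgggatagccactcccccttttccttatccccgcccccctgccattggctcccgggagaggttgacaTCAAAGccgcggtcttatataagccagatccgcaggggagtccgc
ISL1, chr5:51383198-51383447, plus strand: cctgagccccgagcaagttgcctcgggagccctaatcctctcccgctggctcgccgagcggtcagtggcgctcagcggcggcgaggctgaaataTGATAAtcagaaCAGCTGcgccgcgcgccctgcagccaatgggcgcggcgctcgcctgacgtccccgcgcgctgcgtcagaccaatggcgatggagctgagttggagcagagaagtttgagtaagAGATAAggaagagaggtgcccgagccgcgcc
GATA6, chr18:22169339-22169588, plus strand: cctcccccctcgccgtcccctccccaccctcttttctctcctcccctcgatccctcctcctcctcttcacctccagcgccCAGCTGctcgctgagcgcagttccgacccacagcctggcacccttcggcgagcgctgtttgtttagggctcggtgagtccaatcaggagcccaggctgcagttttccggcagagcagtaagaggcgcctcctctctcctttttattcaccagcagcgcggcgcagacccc

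The HAND1 window held 1 match to the TCF/LEF core, 45 to 40 bases before the start, and none to the other motifs. The ISL1 window held 2 GATA matches, of which the nearer lay 31 to 26 bases before the start, and 1 E-box. The GATA6 window held 1 E-box, with the same letters as that of ISL1. Over 27303 windows of the same length, 14.9% held the GATA core, 62.2% an E-box and 11.4% the TCF/LEF core. Among the 6 windows matched here, 2 held the GATA core, 3 an E-box and 1 the TCF/LEF core. All of the other 3 windows were examined too: HAND2 held 2 GATA matches and 1 E-box, while HHEX and CXCR4 held no match. GC content was 67.2% for HAND1, 65.2% for ISL1, 64.4% for GATA6, 49.6% for HAND2, 81.2% for HHEX and 68% for CXCR4, against a median of 58% over all windows. A match describes letters only, and no binding was measured in this study.

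**Figure D1:**
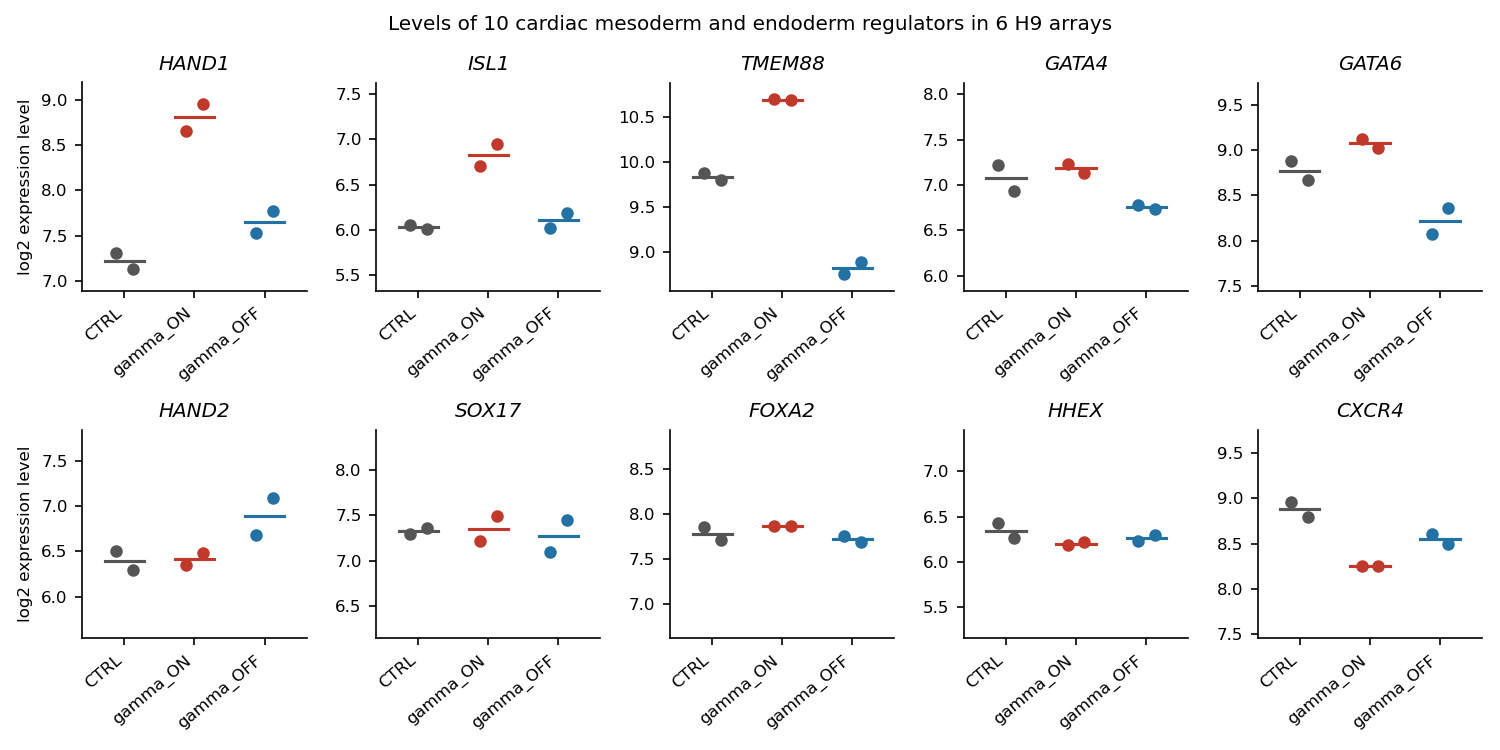
Log2 expression level (y axis) of each of the 10 genes on the 2 arrays of CTRL, gamma_ON and gamma_OFF (x axis); points are arrays, bars are group means, and all panels span the same number of log2 units. HAND1, ISL1 and TMEM88 stood highest in gamma_ON, TMEM88 and GATA6 stood lowest in gamma_OFF, and SOX17, FOXA2 and HHEX spanned 0.403 log2 units or less over the 6 arrays. ISL1 is shown by its brighter row.

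TMEM88 was the member with the widest range. It was higher in gamma_ON and lower in gamma_OFF than in CTRL. Its log2 level was 9.87 and 9.80 on the CTRL arrays, 10.69 and 10.68 in gamma_ON, and 8.76 and 8.89 in gamma_OFF. The 3 groups did not overlap, and the arrays of a group lay within 0.13 of each other. Against CTRL it rose by 0.85 in gamma_ON (SE 0.12, limma adjusted p = 0.00922), which is 1.81-fold, and fell by 1.01 in gamma_OFF (SE 0.12, adjusted p = 0.00439), which is 2.01-fold. Both of these comparisons use the same CTRL arrays. The direct difference of gamma_ON over gamma_OFF shares no control and was 1.86 (SE 0.12, adjusted p = 0.000106), or 3.63-fold, the 18th highest of 14884 genes. The rise in gamma_ON stayed between 0.81 and 0.89 whichever array was left out. Its call was lost when any 1 array of CTRL or gamma_ON was dropped, which leaves 1 array in that group. The fall in gamma_OFF and the direct difference passed whichever array was left out. They were -1.07 (adjusted p = 0.0156) and 1.92 (adjusted p = 0.00149) without gamma_OFF replicate 2.

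HAND1 encodes a basic helix-loop-helix factor that works as a dimer with E proteins. It was higher in gamma_ON than in both other groups. Its log2 level was 7.31 and 7.13 in CTRL, 8.66 and 8.95 in gamma_ON, and 7.53 and 7.77 in gamma_OFF. The groups were separate, with gamma_OFF between CTRL and gamma_ON. In gamma_ON it rose against CTRL by 1.59 (SE 0.15, limma adjusted p = 0.0012), the 17th highest rise among all genes. This call was kept whichever array was left out, with differences between 1.44 and 1.73. Gamma_ON also exceeded gamma_OFF by 1.16 (SE 0.15, adjusted p = 0.00617), though its adjusted p was 0.0621 once gamma_ON replicate 2 was dropped. It was 1.27 (adjusted p = 0.0257) without gamma_OFF replicate 2. Gamma_OFF stood 0.43 above CTRL (SE 0.15, adjusted p = 0.0932), which did not pass. Without gamma_OFF replicate 1 that difference was 0.55 and had an adjusted p of 0.0466.

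HAND2 is the close relative of HAND1, and its values ran otherwise. The log2 level was 6.51 and 6.29 in CTRL, 6.35 and 6.49 in gamma_ON, and 6.68 and 7.09 in gamma_OFF. CTRL and gamma_ON overlapped, while both gamma_OFF arrays lay above them. The difference between gamma_ON and CTRL was 0.02 (SE 0.16, limma adjusted p = 0.97). Gamma_OFF stood 0.49 above CTRL (SE 0.16, adjusted p = 0.0809) and gamma_ON 0.47 below gamma_OFF, a difference of -0.47 (adjusted p = 0.0896), so none of the 3 comparisons passed. The gap between the gamma_OFF arrays themselves was 0.41. Without gamma_OFF replicate 1, gamma_OFF stood 0.69 above CTRL (adjusted p = 0.0176) and gamma_ON differed from gamma_OFF by -0.67 (adjusted p = 0.0179); without gamma_OFF replicate 2 neither passed. HAND2-AS1, an antisense transcript that overlaps HAND2, had a row of its own at 5.67 and 5.24 in CTRL, 5.20 and 5.31 in gamma_ON, and 5.10 and 4.997 in gamma_OFF. Strand use of the rows is not given in the sources used here.

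ISL1 encodes a LIM homeodomain factor of second heart field progenitors. On its brighter row the log2 level was 6.06 and 6.01 in CTRL, 6.71 and 6.95 in gamma_ON, and 6.03 and 6.19 in gamma_OFF. Both gamma_ON arrays lay above the other 4, and CTRL and gamma_OFF overlapped. On this row ISL1 rose by 0.80 in gamma_ON against CTRL (SE 0.13, limma adjusted p = 0.0228), and gamma_ON exceeded gamma_OFF by 0.72 (SE 0.13, adjusted p = 0.0249). The dimmer row read 5.33 and 5.23 in CTRL, 5.28 and 5.25 in gamma_ON, and 5.52 and 5.80 in gamma_OFF. On that row gamma_OFF was highest and gamma_ON stood at -0.02 against CTRL and -0.39 against gamma_OFF, so the rows of ISL1 disagree. With the mean of both rows the difference of gamma_ON was 0.39 against CTRL (adjusted p = 0.173) and 0.16 against gamma_OFF (adjusted p = 0.37). On the brighter row, dropping CTRL replicate 1 or 2 took the adjusted p against CTRL to 0.121 or 0.2, and dropping gamma_ON replicate 1 or 2 to 0.0854 or 0.173. Against gamma_OFF, it became 0.116 or 0.106 when gamma_ON replicate 1 or 2 was dropped and 0.057 when gamma_OFF replicate 2 was.

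GATA4 and GATA6 encode zinc finger factors that act together in heart and endoderm progenitors. GATA6 had log2 levels of 8.87 and 8.67 in CTRL, 9.12 and 9.03 in gamma_ON, and 8.07 and 8.36 in gamma_OFF. The 3 groups did not overlap, in the same order as for TMEM88, although CTRL and gamma_ON came within 0.15 of each other. GATA6 fell by 0.56 in gamma_OFF against CTRL (SE 0.14, limma adjusted p = 0.0433) and was 0.86 higher in gamma_ON than in gamma_OFF (SE 0.14, adjusted p = 0.0167). Its difference of 0.30 between gamma_ON and CTRL did not pass (adjusted p = 0.361). The fall against CTRL was near the threshold. Its adjusted p was 0.0488 without gamma_OFF replicate 2. Dropping CTRL replicate 1 or 2 gave 0.218 or 0.134, dropping gamma_OFF replicate 1 gave 0.0636, and dropping either gamma_ON array gave 0.0768. With the replicate number as a block it was 0.0525, with array weights 0.0619, and with arrays scaled to a common SD 0.0826. For the direct difference, dropping gamma_ON replicate 1 or 2 gave 0.185 or 0.0778, and without gamma_OFF replicate 2 it was 1.00 (adjusted p = 0.0305).

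GATA4 moved less. It stood at 7.22 and 6.93 in CTRL, 7.23 and 7.14 in gamma_ON, and 6.78 and 6.74 in gamma_OFF. CTRL and gamma_ON overlapped, and both gamma_OFF arrays were lowest. Gamma_ON stood 0.43 above gamma_OFF (SE 0.13, limma adjusted p = 0.0759), which did not pass. With dim genes left out of the fit, so that 10644 genes were tested, the same difference had an adjusted p of 0.0444; without gamma_OFF replicate 2 it was 0.40 (adjusted p = 0.191).

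Of the 4 endoderm markers, CXCR4 fell in gamma_ON and the other 3 did not pass in any comparison. CXCR4, the receptor for the chemokine CXCL12, had log2 levels of 8.96 and 8.80 in CTRL, 8.25 and 8.26 in gamma_ON, and 8.61 and 8.50 in gamma_OFF. All 3 groups were separate, with CTRL highest and gamma_ON lowest, the opposite end from HAND1 and TMEM88. CXCR4 changed by -0.62 in gamma_ON against CTRL (SE 0.12, limma adjusted p = 0.0398), the 177th lowest of 14884 genes. Dropping CTRL replicate 1 or 2 took the adjusted p to 0.277 or 0.189, dropping gamma_ON replicate 1 or 2 to 0.288 or 0.212, and the replicate block to 0.052. Against CTRL, gamma_OFF stood at -0.32 (adjusted p = 0.108), which did not pass, and at -0.27 without gamma_OFF replicate 2 (adjusted p = 0.249). The ligand gene CXCL12 stood between 8.55 and 8.77 on all 6 arrays. ACKR3, which encodes a scavenging receptor for the same ligand, stood 0.47 above CTRL in gamma_ON and did not pass (adjusted p = 0.129).

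SOX17, FOXA2 and HHEX, transcription factor genes of endoderm, differed little among groups. SOX17 read 7.30 and 7.36 in CTRL, 7.22 and 7.49 in gamma_ON, and 7.09 and 7.45 in gamma_OFF, with all groups overlapping. Its largest group difference, 0.09 between gamma_ON and gamma_OFF (SE 0.15), was smaller than the gap of 0.36 between the gamma_OFF arrays. FOXA2 read 7.85 and 7.71 in CTRL, 7.87 and 7.87 in gamma_ON, and 7.76 and 7.69 in gamma_OFF. The gamma_ON arrays lay above the rest by a small margin, and the difference from gamma_OFF was 0.14 (SE 0.12, limma adjusted p = 0.4). HHEX read 6.43 and 6.26 in CTRL, 6.18 and 6.22 in gamma_ON, and 6.23 and 6.30 in gamma_OFF. Its gamma_ON arrays were the lowest, at -0.15 against CTRL (SE 0.12, adjusted p = 0.626). These are differences that did not pass at 2 arrays a group, and a missed threshold does not show equal levels.

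**Figure D2:**
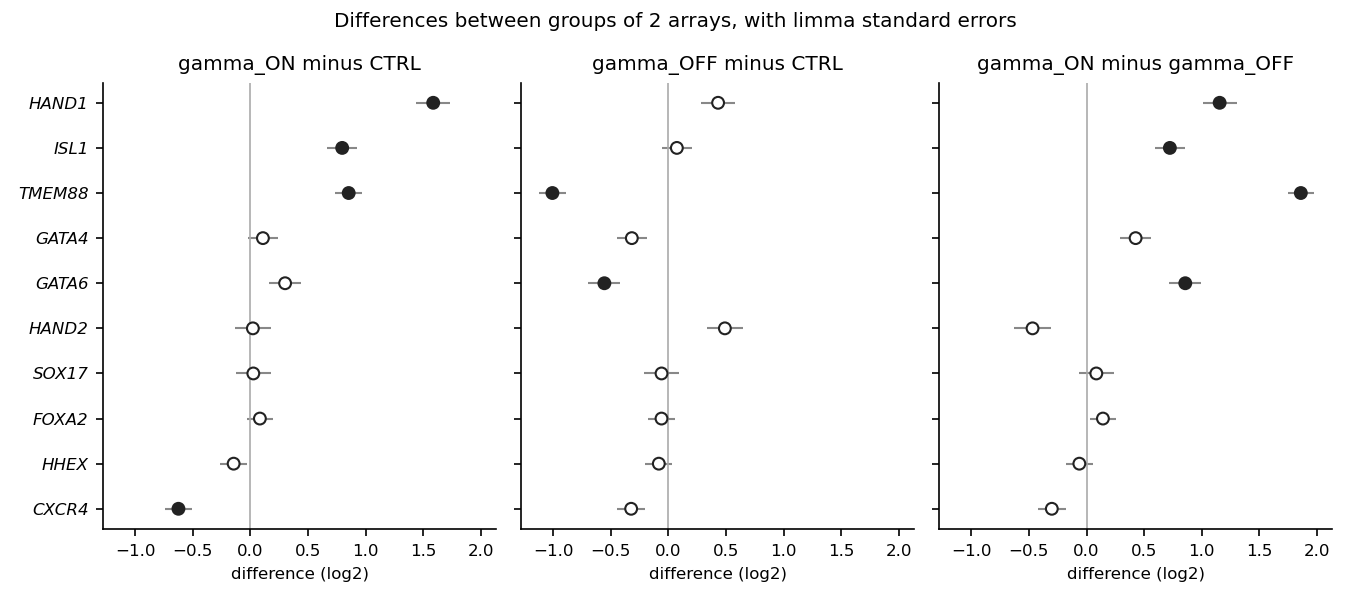
Difference in log2 level (x axis) for each of the 10 genes (y axis) in the 3 comparisons; points are differences of 2-array means, bars are limma standard errors, and filled points had an adjusted p under 0.05. The filled points are HAND1, ISL1, TMEM88 and CXCR4 for gamma_ON minus CTRL, TMEM88 and GATA6 for gamma_OFF minus CTRL, and HAND1, ISL1, TMEM88 and GATA6 for gamma_ON minus gamma_OFF. ISL1 is shown by its brighter row, with which its dimmer row disagrees.

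Counted together, 3 of the 10 genes rose and 1 fell in gamma_ON against CTRL, where limma called 1.55% of all genes (0.739% higher and 0.806% lower). In gamma_OFF against CTRL, where 8.85% of all genes were called (2.77% higher and 6.08% lower), 0 rose and 2 fell; at an unadjusted p under 0.05, 2 were higher and 4 lower. Gamma_ON was higher than gamma_OFF for 4 genes and lower for 0, where 5.99% of all genes were called (3.98% higher and 2.02% lower); unadjusted, 5 were higher and 2 lower. The arrays of the compared groups did not overlap for 7 genes in gamma_ON against CTRL, 6 in gamma_OFF against CTRL and 9 between gamma_ON and gamma_OFF, against 52.4%, 61.3% and 63.3% of all genes. The list was put together with these comparisons in view, so nothing is read from the counts. Calls and separations are given beside their background, but no share of all genes was computed at an unadjusted p under 0.05. The median difference of the 10 genes was 0.09 for gamma_ON against CTRL, -0.07 for gamma_OFF against CTRL and 0.28 for gamma_ON against gamma_OFF, with medians over all genes of 0.02, 0.01 and 0.02. All rises were among the 6 cardiac genes. ISL1 was counted by its brighter row, and its rows disagree. With the mean of all rows of a gene, 2 rose in gamma_ON against CTRL and 3 were higher in gamma_ON than in gamma_OFF. The members called differed by array left out: in gamma_ON against CTRL only HAND1 was called without any 1 of the CTRL or gamma_ON arrays. Without gamma_OFF replicate 2, 0 rose and 2 fell in gamma_OFF against CTRL, and 3 were higher in gamma_ON than in gamma_OFF. Without gamma_ON replicate 1 or 2 the latter count was 2 or 1. Without gamma_OFF replicate 1, 2 rose and 1 fell in gamma_OFF against CTRL. In that comparison 1 fell when any 1 array of CTRL or gamma_ON was dropped.

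The order of the groups differed among the genes. By group means, 5 genes ran from gamma_ON through CTRL down to gamma_OFF: TMEM88, GATA4, GATA6, SOX17 and FOXA2. The share of all genes with this order of means was not computed. For SOX17 and FOXA2, no gap between neighbouring means exceeded 0.082, against gaps of 0.36 and 0.14 within a group. For GATA4, gamma_ON stood 0.11 above CTRL, against a gap of 0.29 within a group. Among the 5 genes the arrays of all 3 groups were fully separate for TMEM88 and GATA6, a pattern that 5.94% of all genes showed. HAND1 was separate in the order gamma_ON, gamma_OFF, CTRL, as were 2.60% of all genes, and CXCR4 in the order CTRL, gamma_OFF, gamma_ON, as were 1.23%. In the remaining 6 genes, neighbouring groups in the order overlapped for at least 1 pair.

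The genes most like a member were sought by Pearson's r over the 6 arrays, among genes whose range was at least 0.5 of that member's. This was done for the 3 members with the widest range, and r is a description, since arrays of a group share their vector and the values fall into 3 clusters. For TMEM88 the nearest of 751 genes were ZNF732 (r = 0.999), a zinc finger gene, PRTG (r = 0.997), which encodes an immunoglobulin family membrane protein, and BAMBI (r = 0.986), which encodes a decoy receptor of TGF-beta and BMP signals. ZNF732 moved through 3.78 log2 units, against 1.93 for TMEM88. PRTG read 9.74 and 9.43 in CTRL, 10.62 and 10.62 in gamma_ON, and 8.33 and 8.53 in gamma_OFF, so its groups were ordered as those of TMEM88.

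For HAND1 the nearest of 957 genes were FAR2 (r = 0.991), which encodes a fatty acyl-CoA reductase, the apolipoprotein gene APOC3 (r = 0.99) and MIXL1 (r = 0.986), a homeobox gene of the primitive streak. FAR2 read 7.01 and 7.03 in CTRL, 7.99 and 8.07 in gamma_ON, and 7.29 and 7.43 in gamma_OFF, with gamma_OFF in the middle as for HAND1. For GATA6 the nearest of 5424 genes were TBX3 (r = 0.987), a T-box gene, PTGFRN (r = 0.986) and the pseudogene RPL23AP53 (r = 0.983). TBX3 read 7.95 and 7.52 in CTRL, 8.19 and 8.15 in gamma_ON, and 6.90 and 7.07 in gamma_OFF. For GATA6, CTRL replicate 1 stood above replicate 2 by 0.21, and for TBX3 by 0.43.

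**Figure D3:**
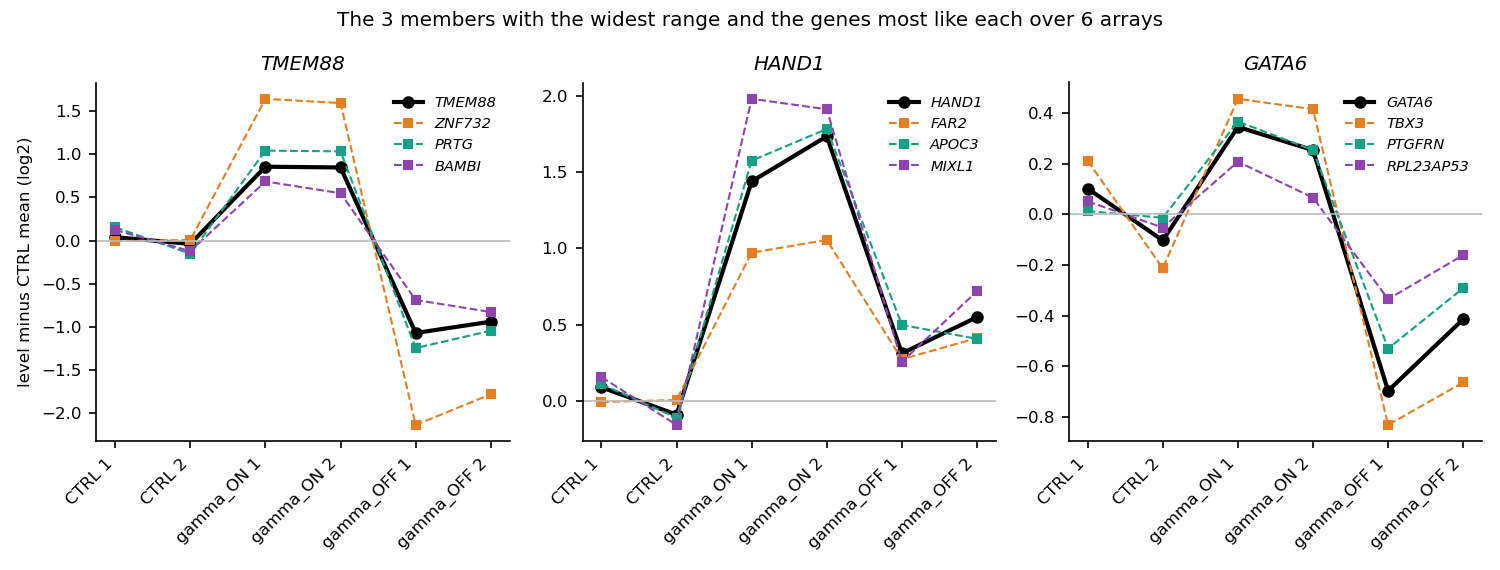
Level minus the CTRL mean (y axis, log2) on the 6 arrays (x axis) for TMEM88, HAND1 and GATA6 (black) and the 3 genes with the highest Pearson's r to each (dashed); lines join the arrays only to follow a gene. The genes nearest to TMEM88 were above CTRL in gamma_ON and below it in gamma_OFF, whereas those nearest to HAND1 were above CTRL in both.

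Other early cardiac regulators were read from a list that leaves out the 10 genes. Of its 31 genes, 23 had a named row. Over all genes, 0.739% were called higher and 0.806% lower in gamma_ON against CTRL. The shares were 2.77% and 6.08% in gamma_OFF against CTRL, and 3.98% and 2.02% between the vectors. All lists were chosen with earlier results of these data known, so nothing is read from the counts of this list or those below. In gamma_ON against CTRL, 1 rose, BMP4, by 0.76 (SE 0.12, limma adjusted p = 0.0193), and 22 did not pass. Limma called 3 higher with trend and robust fitting, 6 with array weights and 4 with dim genes left out. The count over all genes rose in these settings too, as given below. At an unadjusted p under 0.05, 10 were higher and 0 lower, a cut at which no share of all genes was computed. BMP4 encodes a ligand that induces mesoderm and heart progenitors. Dropping CTRL replicate 1 or 2 moved its difference to 0.83 or 0.69, and dropping gamma_ON replicate 1 or 2 to 0.75 or 0.77. Each of these ended the call. In gamma_OFF against CTRL, 3 fell and 20 did not pass: the BMP ligand genes BMP5, by 1.13 (SE 0.16, adjusted p = 0.00783), and BMP2, by 0.76 (SE 0.14, adjusted p = 0.0185), and TBX3, by 0.75 (SE 0.15, adjusted p = 0.0252). Only BMP5 of these was called without gamma_OFF replicate 2, where BMP2 had an adjusted p of 0.0601 and TBX3 0.0607. Without CTRL replicate 1 the adjusted p was 0.123 for BMP2 and 0.149 for TBX3, and without either gamma_ON array it was 0.053 for TBX3.

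Between the H2A.X vectors, where 3.98% of all genes were called higher in gamma_ON, 6 of the 23 were higher and 17 did not pass. They were BMP5 (1.53), TBX3 (1.19), BMP2 (0.71), KDR (0.71), HEY1 (0.71) and BMP4 (0.64). KDR encodes a VEGF receptor found on cardiovascular progenitors, and HEY1 a Notch effector. Without gamma_OFF replicate 2 only BMP5 and TBX3 were called; the count was 1 without either gamma_ON array and 4 with array weights. The list's median was 0.01 in gamma_ON and 0.12 in gamma_OFF against CTRL, and 0.11 between the vectors, beside 0.02, 0.01 and 0.02 over all genes.

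Other early endoderm regulators had 15 measured of 22 genes. In gamma_ON against CTRL 2 rose, MIXL1 by 1.94 (SE 0.17, limma adjusted p = 0.000866) and the T-box gene EOMES by 1.18 (SE 0.13, adjusted p = 0.00294), and 13 did not pass. With gamma_ON replicate 1 dropped, EOMES stood at an adjusted p of 0.0522. In gamma_OFF against CTRL 2 fell, TBX3, which this list shares with the cardiac one, and FRZB, which encodes a secreted WNT antagonist, by 0.71 (SE 0.15, adjusted p = 0.0267). Without gamma_OFF replicate 2 neither was called, and FRZB had an adjusted p of 0.0979. For FRZB, dropping CTRL replicate 1 or 2 gave 0.162 or 0.0572, and dropping either gamma_ON array 0.0564. Between the vectors, where 3.98% of all genes were called higher in gamma_ON, 6 were higher and 9 did not pass. EOMES (1.64), MIXL1 (1.46), TBX3 (1.19) and the WNT antagonist gene DKK1 (0.71) led, followed by FRZB (0.62) and LGR5 (0.58). That count was 3 when gamma_OFF replicate 2 or either CTRL array was dropped, and 1 or 2 when gamma_ON replicate 1 or 2 was dropped. The list's median was 0.31 in gamma_ON and -0.03 in gamma_OFF against CTRL, and 0.27 between the vectors.

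Family members and binding partners of the 10 genes gave few calls, with 18 of 27 measured. In gamma_ON against CTRL limma called 0 in the main fit. The count was 1 higher with trend and robust fitting, array weights, dim genes left out or a fit of only these groups. At an unadjusted p under 0.05, 2 were higher and 0 lower, with no share of all genes computed. LDB2, which encodes a cofactor of LIM factors such as ISL1, stood at 0.65 (adjusted p = 0.06). In gamma_OFF GATA3, another GATA factor gene, fell by 0.83 (SE 0.13, adjusted p = 0.0114) and 17 did not pass. GATA3 read 8.15 and 7.92 in CTRL, 8.18 and 8.08 in gamma_ON, and 7.10 and 7.31 in gamma_OFF. For this fall, dropping CTRL replicate 1 gave 0.0882. It was also 0.93 higher in gamma_ON than in gamma_OFF (adjusted p = 0.011), where dropping gamma_ON replicate 1 or 2 gave 0.139 or 0.0662. Both GATA3 calls were kept without gamma_OFF replicate 2.

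Markers of cells that such a culture could hold were read beside the 10 genes. By list mean, visceral and yolk sac endoderm markers moved with TMEM88, and with HAND1 in gamma_ON but not in gamma_OFF. There HAND1 stood above CTRL and most of these markers below it. AFP was the exception: it stood above CTRL by 4.37 in gamma_ON and by 1.02 in gamma_OFF, the group order of HAND1. Of 12 listed, 7 were measured, and AMN, DAB2, RBP4, LAMB1 and COL4A1 had no named row. AFP, TTR, APOA2, APOB and FGB rose in gamma_ON against CTRL, where 0.739% of all genes were called higher, and 2 did not pass. Dropping gamma_ON replicate 1 or 2 ended the calls of TTR and APOA2, with a list median of 1.45 or 1.31. In gamma_OFF, AFP was higher and APOA2, TTR and FGB lower than CTRL; AFP was not called without CTRL replicate 2, and 1 of the lower calls held without CTRL replicate 1 and 2 without gamma_OFF replicate 2 or either gamma_ON array. Their mean level was 8.39 and 7.97 in CTRL, 9.85 and 9.95 in gamma_ON, and 7.75 and 7.68 in gamma_OFF, so all 3 groups were separate in the order seen for TMEM88. The part of such cells in the differences of the 10 genes was not tested. In bulk RNA a larger share of cells of a type cannot be told apart from more RNA per cell.

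The other marker lists had fewer called members. Of 7 measured trophoblast and amnion markers 0 were called in gamma_ON against CTRL by limma, with 1 higher and 0 lower at an unadjusted p under 0.05, and their mean level was 6.83 and 6.88 in gamma_ON against 6.70 and 6.66 in CTRL. VTCN1 stood 0.62 above CTRL in gamma_ON (adjusted p = 0.0628), and passed with trend and robust fitting (0.0447), array weights (0.015), dim genes left out (0.0298) and a fit of only these groups (0.0382). Against gamma_OFF, 2 of the 7 were higher in gamma_ON, GATA3 and VTCN1, the latter by 0.60 (adjusted p = 0.0429). That VTCN1 call was lost without either CTRL array (0.0758), gamma_ON replicate 1 or 2 (0.295 or 0.0989) or gamma_OFF replicate 2 (0.0702). Against CTRL, GATA3 was the 1 marker of this list called in gamma_OFF, lower as given above. HAND1 and ISL1 are genes of these tissues too, and the part of such cells was not tested. Cardiomyocyte markers had 7 measured of 16, without MYH6, MYH7 and TNNT2, which were not analysed here. Of these, 0 were called in gamma_ON against CTRL, with 0 higher and 1 lower unadjusted, and TTN fell in gamma_OFF by 0.57 (limma adjusted p = 0.0305, and 0.0956 without gamma_OFF replicate 2). For TTN, dropping CTRL replicate 1 or 2 gave 0.184 or 0.101, and dropping either gamma_ON array 0.0619. Mean levels of this list lay between 6.71 and 6.82 on all arrays. The 8 endothelial and blood markers had mean levels from 6.75 to 7.05. KDR was higher in gamma_ON than in gamma_OFF, as given above, with 0.0734 without gamma_OFF replicate 2. PECAM1 was higher in gamma_OFF than in CTRL by 0.71 (limma adjusted p = 0.044), with 0.146 without gamma_OFF replicate 2, 0.123 or 0.23 without CTRL replicate 1 or 2, and 0.0704 without either gamma_ON array. The 6 neural markers had mean levels from 6.68 to 7.17, highest on a CTRL array. ZIC1 was lower than CTRL in gamma_ON, at -0.64 (adjusted p = 0.0488), and in gamma_OFF, at -0.67 (adjusted p = 0.0201). DCX was lower in gamma_ON than in gamma_OFF, at -0.71 (adjusted p = 0.0424). Dropping either array of CTRL or gamma_ON ended the first ZIC1 call, dropping either array of CTRL or gamma_OFF replicate 2 (0.0711) the second, and dropping any array but gamma_OFF replicate 1 the DCX call (0.119 without gamma_OFF replicate 2). Feeder fibroblast markers had 5 measured of 10, without the collagen genes COL1A1, COL1A2 and COL3A1, and their mean level was 7.49 to 7.67 in CTRL, 7.63 to 7.69 in gamma_ON and 7.24 to 7.38 in gamma_OFF. Members of this list went both ways. TAGLN was lower than CTRL in gamma_ON, at -0.62 (limma adjusted p = 0.0304), and in gamma_OFF, at -0.55 (adjusted p = 0.0235). LUM was higher in gamma_ON than in gamma_OFF by 1.10 (adjusted p = 0.026) and stood 0.86 above CTRL (adjusted p = 0.0789). Without gamma_OFF replicate 2 the adjusted p was 0.054 for TAGLN in gamma_OFF and 0.11 for the LUM difference between the vectors. Dropping either array of CTRL or gamma_ON ended both TAGLN calls, and dropping either gamma_ON array that of LUM. The feeders were mouse cells and the array is a human one, so how far these rows read feeder RNA is not known here. The part of feeder cells in the differences of the 10 genes was not tested.

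**Figure D4:**
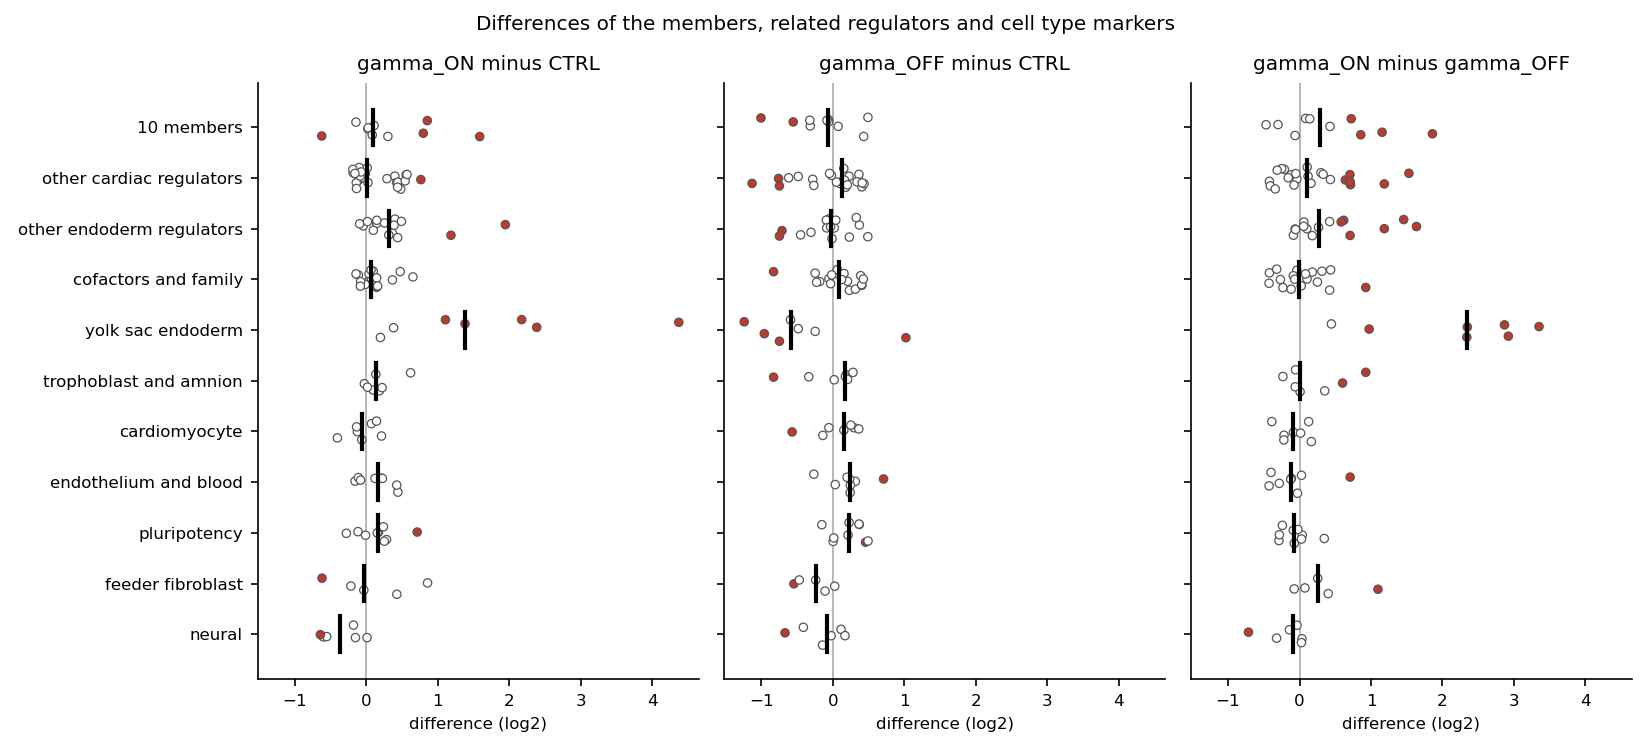
Difference in log2 level (x axis) in the 3 comparisons for the 10 genes, 3 lists of related regulators and 7 lists of cell type markers (y axis); each point is a gene, black bars are list medians, and filled points had a limma adjusted p under 0.05. Yolk sac endoderm markers had a median of 1.38 in gamma_ON minus CTRL and -0.59 in gamma_OFF minus CTRL, and the related regulators between -0.03 and 0.31.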

How the data were processed

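Expression was measured on 6 arrays, 2 for each of CTRL, gamma_ON and gamma_OFF, grouped by the sample descriptions. The deposited values are log2 levels with a column for each sample. RMA (background correction, quantile normalization and probe summary) and Partek 6.6 appear in the submitters' processing notes; options, build and annotation: not given in the sources used here. Precision is limited by the number of arrays.

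Of 53617 rows, 16098 were paired with 1 gene symbol by the platform annotation, 0 with several and 37519 are unnamed here; all 16098 identifiers matched RefSeq (GRCh38.p14), and 0 symbols changed. For 779 genes with several rows the brightest was used, leaving 14884 genes. H2AX had 0 named rows, so the level of the altered gene itself is not reported.

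Groups were compared by limma 3.58.1 (lmFit, eBayes) in R 4.3.3, in 1 fit over 6 arrays with 3 residual and 6.05 prior degrees of freedom, two-sided, with Benjamini-Hochberg adjustment over all genes and a call at 0.05. Counts at an unadjusted p under 0.05 stand without a share of all genes, which was not computed at that cut. No exact test was run, because with 2 arrays a side its smallest p is 0.333. The script was tested on simulated data.

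The 10 genes and all lists were chosen with earlier results of these data known. From each list of regulators the called genes were named, up to 4 per comparison, and from marker lists up to 3; LDB2, SOX2, NANOG, CXCL12, ACKR3, HAND2-AS1, the remaining called regulators and 2 further yolk sac genes were named after their values were seen. Alternatives varied the spread model, array weights, the groups fitted together, removal of dim genes (mean under 6.17), rows per gene, scaling and a replicate block. The array weights were equal within each group, at 1.48 in CTRL, 1.24 in gamma_ON and 0.544 in gamma_OFF. That setting therefore weighted whole groups and could not single out 1 array of a pair.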

Additional observations from a re-analysis of the deposited data

How the results depend on the processing

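Of the 10 genes in 3 comparisons, none reversed under the 7 alternatives that left out no single array, and 7 values lost and 1 gained a call there; with single arrays left out 23 lost and 3 gained a call. Small uncalled differences turned in 10 of these fits: SOX17 ran from -0.11 to 0.16 and HAND2 from -0.089 to 0.13 in gamma_ON against CTRL, as GATA4 did from -0.036 to 0.25; SOX17 from -0.24 to 0.12, FOXA2 from -0.13 to 0.0091 and ISL1 from -0.0073 to 0.15 in gamma_OFF against CTRL, and SOX17 from -0.093 to 0.26 between the vectors. The causes were not tested.

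Counts of called genes moved more. For gamma_ON against CTRL, 230 genes were called, against 381 with trend and robust fitting, 803 with array weights, 377 with dim genes left out and 487 in a fit of only these groups; with 1 array left out the count ran from 34 to 487. For gamma_OFF against CTRL it was 1317, against 767 with array weights and 567 in a fit of only these groups, and 131 to 3515 with 1 array left out. Between the vectors it was 892, against 1596 with trend and robust fitting, 229 with array weights, 1862 with dim genes left out, 443 with arrays scaled to a common SD and 275 in a fit of only these groups, and 49 to 4061 with 1 array left out. The causes were not tested.

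Replicate numbers are shared by the groups. Deviations of same-numbered arrays correlated at -0.096, -0.073 and 0.088, so no pairing showed over all genes. Shared handling that touched few genes would not show in these values, and the labels do not give the handling. With the replicate block 210, 1245 and 871 genes were called. Without gamma_OFF replicate 2, an alternative chosen after seeing the data, the calls among other cardiac regulators went from 3 to 1 in gamma_OFF against CTRL and from 6 to 2 between the vectors.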
